A study of Mus musculus with 12 samples.

Results

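Sulfur amino acid restriction on a high-fat background was examined in the livers of 6 of the 12 mice sequenced, 3 fed the HF.SAAR diet and 3 fed the HF.Ctrl diet. The mice were chosen by their pair of diet labels, HF with SAAR or HF with Ctrl, and no measured value entered the choice. In the labels, the tag named diet holds the fat level and the tag for dietary fat content holds Ctrl or SAAR, so both were read together. All mice were male C57Bl/6J, 5 to 6 months old and single-housed, ate their diet for 7 days, and were deprived of food for 4 h before the liver was taken. According to the paper, mice were also injected with deuterium-labeled water and then given it to drink from the start of the diets. It also reports that restricted mice drank more, so intake of the label can differ between the groups. Cysteine was absent from the control diets too, so restriction meant less methionine, with glutamic acid added to keep nitrogen equal. Fat gave 60% of the energy of the HF diets and 18% of that of the RF (regular-fat) diets. The other 6 mice, 3 RF.Ctrl and 3 RF.SAAR, entered the same model, and their comparison shows where the response on high fat differed.

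Methionine is an essential amino acid that the liver turns into S-adenosylmethionine, the methyl donor, and by transsulfuration into cysteine, from which glutathione and taurine are made. A shortage of an amino acid is sensed by the kinase GCN2, and the transcription factor ATF4 then raises genes of amino acid synthesis and transport. The liver also makes most plasma proteins, conjugates and exports foreign compounds and bile acids, and in male mice keeps a male-biased program, with major urinary proteins in large amounts, under pulses of growth hormone.

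The 6 libraries held 16203094, 21230092 and 16649996 estimated counts (HF.Ctrl 1 to 3) and 17710716, 19933360 and 19895587 (HF.SAAR 1 to 3). Levels are given as normalized CPM, estimated counts scaled by library size and TMM factor, unless TPM is named. Hepatocyte markers were high in every mouse, and their most abundant gene, Alb, stood at 63819, 57561 and 54350 CPM in HF.Ctrl and 56186, 60686 and 52728 CPM in HF.SAAR. Of the 14 tested, 1 was called (7.14%, against 1.97% of all genes tested), Serpina1c, an alpha-1-antitrypsin gene, which was lower in HF.SAAR (−0.43, adjusted p = 0.0345), and the call of Serpina1c was lost without any 1 of the 6 mice (adjusted p up to 0.189, without HF.SAAR 3). Markers of pancreatic acinar cells differed widely between mice of the same group. Their summed level was 2135, 7807 and 85.7 CPM in HF.Ctrl and 76.8, 4547 and 20501 CPM in HF.SAAR, with 33 of 36 genes tested, Cela3a at 0 in all 6 mice, and Ctrb1 the most abundant (160.1, 605 and 6.16 CPM against 5.42, 566 and 2494 CPM). None of the 33 was called by edgeR, 0 had an unadjusted p under 0.05 and 0 were called by DESeq2. A fit without these genes called 148 genes higher and 143 lower, of which 146 and 139 were called in the fit with them. Lymphocyte markers summed to 6.87, 6.34 and 5.54 CPM in HF.Ctrl and 3.12, 6.27 and 27.3 CPM in HF.SAAR. Kupffer cell and macrophage markers (12 of 12 tested) all had log2 fold changes above 0, with 0 called, 0 at an unadjusted p under 0.05 and 0 called by DESeq2, and summed to 449, 588 and 449 CPM in HF.Ctrl and 488, 699 and 604 CPM in HF.SAAR. In bulk liver, fewer cells of a type and less RNA per cell cannot be told apart, here and below.

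Restriction on high fat moved similar numbers of genes up and down, and the genes that fell were on the whole more abundant than those that rose. Of 14670 genes tested, 289 passed the test of HF.SAAR against HF.Ctrl (1.97%), 148 with more RNA in HF.SAAR (called higher, 1.01%) and 141 with less (called lower, 0.961%), where called means an adjusted p under 0.05 (edgeR quasi-likelihood F-test, Benjamini-Hochberg over all genes tested). In every one of the 289 the 3 HF.SAAR mice lay outside the range of the 3 HF.Ctrl mice, which held for 2620 of all genes tested (17.9%). Where a called gene is said below to have no overlap between groups, this describes its values and gives no support beyond the call. An unadjusted p under 0.05 was found for 1825 of the 14670 genes, and DESeq2 called 595 of the 12782 genes it tested. The median log2 fold change was 0.77 among genes called higher, −0.78 among genes called lower and −0.0014 among all genes tested. A change of at least 2-fold was reached by 52 genes called higher and 51 called lower, and one of at least 4-fold by 18 and 12. Genes with a mean of at least 100 TPM made up 22.3% of those called higher (33), 40.4% of those called lower (57) and 6.16% of those tested (904). The list of integrated stress response genes, 19 of the 14670 genes tested, held 6 of the 148 genes called higher (4.05%). On none of the 48 lists and 26 families examined were 82 genes called higher and 66 called lower. The matching share of all genes tested was not counted.

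**Figure D1:**
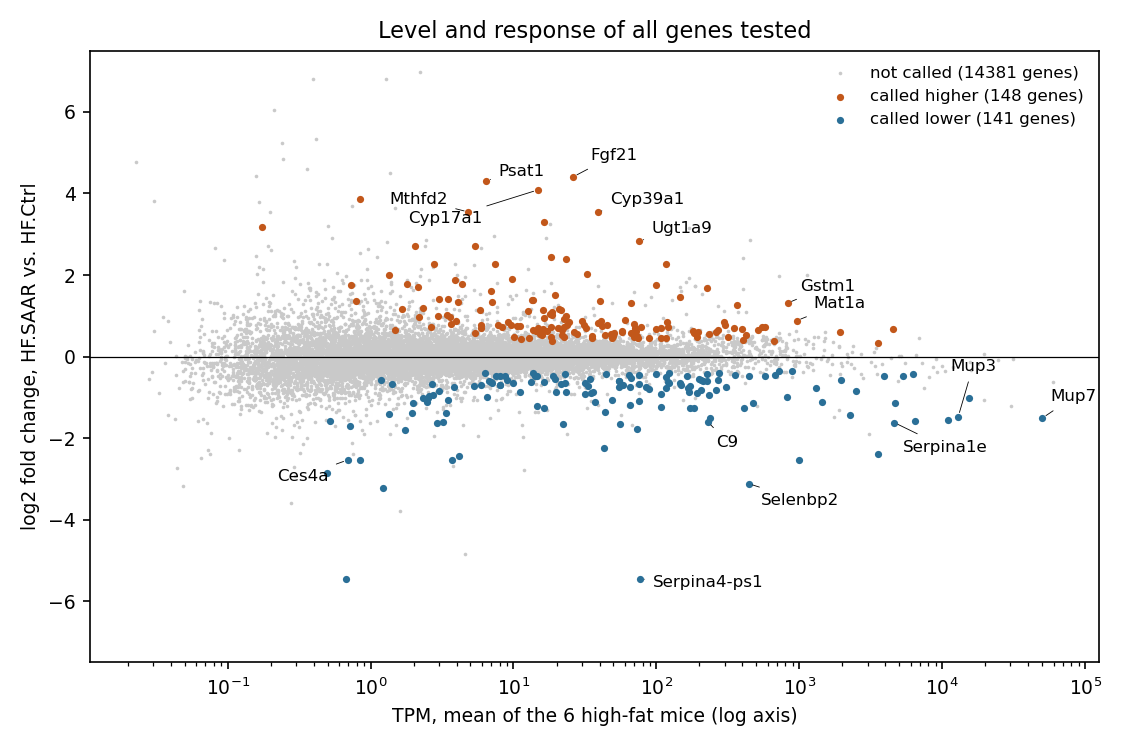
Log2 fold change of HF.SAAR vs. HF.Ctrl (vertical axis) against the mean TPM of the 6 high-fat mice (horizontal log axis) for the 14670 genes tested, 1 point per gene, with the 148 called higher and 141 called lower in color. The median TPM was 22.6 among genes called higher, 55.1 among genes called lower and 4.53 among all genes tested.

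As the plot of level and response shows, called genes lay to the right of the bulk of genes, most of all those called lower. Genes called lower held 14.8, 16.3 and 14.1% of all estimated counts in the HF.Ctrl mice and 8.24, 8.32 and 7.07% in the HF.SAAR mice. Genes called higher held 2.05, 1.98 and 2.09% in HF.Ctrl and 3.73, 3.58 and 3.64% in HF.SAAR. The major urinary protein family as a whole, with members not called, took 14.8, 18.6 and 13.1% of counts in HF.Ctrl and 7.47, 9.59 and 6.26% in HF.SAAR. The groups did not overlap in these shares, which for the first 2 follows from the choice of genes by their call in the same mice. The family share is not independent of the calls either. It includes abundant members called lower in the same mice, and the families were written with earlier results of these data known. The split into higher and lower depends on scaling. With scaling by library size alone, the median of all genes shifted by 0.17 (log2) and 639 genes were called higher and 80 lower, against 148 and 141 with TMM factors.

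**Figure D2:**
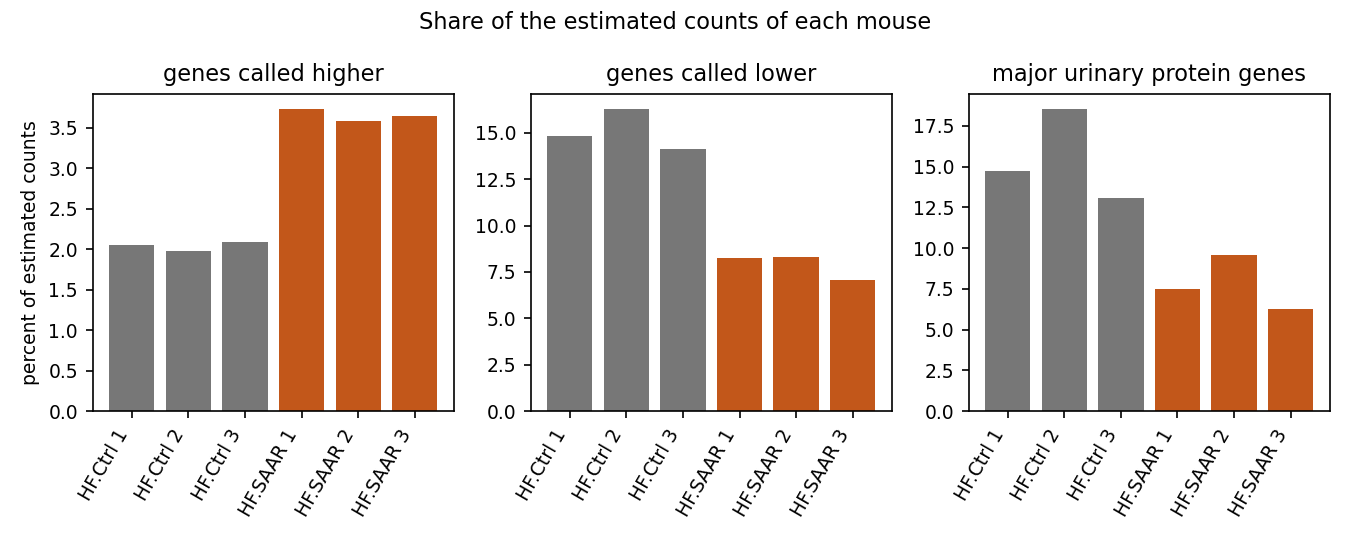
Percent of the estimated counts of each of the 6 high-fat mice (1 bar per mouse) held by the genes called higher, the genes called lower and the major urinary protein family. The genes called lower fall from 14.1% or more in each HF.Ctrl mouse to 8.32% or less in each HF.SAAR mouse.

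The counts of called genes also depend on single mice. Leaving out 1 mouse gave 55 higher and 55 lower without HF.Ctrl 1, 71 and 48 without HF.SAAR 1, 80 and 93 without HF.SAAR 2, 80 and 78 without HF.Ctrl 3, 87 and 68 without HF.SAAR 3, and 135 and 128 without HF.Ctrl 2. Without the pair of mice richest in acinar transcripts of their group, HF.Ctrl 2 and HF.SAAR 3, an alternative chosen after the data were seen, 78 genes were called higher and 63 lower, of which 62 and 55 were among the 148 and 141. Called in all 6 fits that each left out 1 high-fat mouse were 49 genes called higher and 38 called lower, and every gene named below as called was called in all 6 unless it is said otherwise. Of the 136 genes named by rule, 71 kept their call without that pair, 113 with library-size scaling and 110 with length offsets. In a fit of the 6 high-fat mice alone 94 kept it, and without HF.Ctrl 1 it was kept by 68.

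Of all genes tested, Cyp39a1 had the smallest p. It encodes the oxysterol 7-alpha-hydroxylase that acts on 24-hydroxycholesterol in bile acid synthesis (ENSMUSG00000023963, chr17:43667425-43751431, plus strand, GRCm38). It stood at 12.3, 11.6 and 11.4 CPM in the HF.Ctrl mice and 130.2, 142 and 139 CPM in the HF.SAAR mice. The groups were far apart and the mice of each group close together (log2 fold change 3.55 ± 0.11 (SE), adjusted p = 4.45e-10, 11.7-fold). Of 21 genes of bile acid synthesis and conjugation, 5 lay above 0, Cyp39a1 among them, with a median log2 fold change of −0.25, and 1 was called higher, Cyp39a1 itself, and 2 lower (14.3% in all, against 1.97% of all genes tested). The genes called lower were Scp2, the sterol carrier and peroxisomal thiolase (−0.57, adjusted p = 0.0142), and Slc27a5, the bile acid CoA ligase (−0.44, adjusted p = 0.0282). Cyp7a1, the rate-limiting enzyme of the classic pathway, had a log2 fold change of −0.22 and Cyp8b1, the 12-alpha-hydroxylase, of −0.74, and neither was called. The calls of Scp2 and Slc27a5 were not all kept without HF.Ctrl 1, HF.Ctrl 3, HF.SAAR 1 or HF.SAAR 3 (adjusted p up to 0.134, for Slc27a5 without HF.Ctrl 1).

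Enzymes that conjugate and detoxify foreign compounds were among the genes called higher with the smallest p. Gstm1, a mu-class glutathione transferase (ENSMUSG00000058135, chr3:108012255-108017973, minus strand), stood at 461, 485 and 442 CPM in the HF.Ctrl mice and 1117, 1207 and 1128 CPM in the HF.SAAR mice. Every restricted mouse was far above every control (log2 fold change 1.31 ± 0.10 (SE), adjusted p = 1.11e-05). Of the 7 mu-class genes tested, 4 were called higher and 0 lower (57.1%, against 1.97% of all genes tested), and all 7 had log2 fold changes above 0, with a median of 0.76. Gstm3 rose from 12.8, 14.7 and 10.9 CPM to 56.5, 61.0 and 39.2 CPM (log2 fold change 2.03 ± 0.21 (SE), adjusted p = 0.000345) and Gstm2 from 38.2, 35.5 and 30.2 CPM to 126, 132 and 91.8 CPM (log2 fold change 1.75 ± 0.20 (SE), adjusted p = 0.000550). HF.SAAR 3 was the lowest of the restricted mice for both. These genes lie side by side on chr3:107963696-108445209, a stretch bounded by its called genes, which were 5 of 15 tested there, Gstm1 to Gstm4 and Sars, the seryl-tRNA synthetase. The calls of Gstm4 and Sars were not all kept without HF.Ctrl 1, HF.Ctrl 2, HF.Ctrl 3, HF.SAAR 1 or HF.SAAR 3 (adjusted p up to 0.144, for Sars without HF.SAAR 3).

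Among the other soluble transferases, 2 of 13 genes tested were called higher and 0 lower (15.4%, against 1.97% of all genes tested, median 0.52). Gsta2, an alpha-class transferase that also reduces lipid peroxides (ENSMUSG00000057933, chr9:78331018-78355788, minus strand), stood at 19.0, 19.4 and 21.9 CPM in the HF.Ctrl mice and 86.7, 112 and 92.5 CPM in the HF.SAAR mice. The groups did not overlap (log2 fold change 2.27 ± 0.18 (SE), adjusted p = 2.00e-05). Gstp3, of the pi class, rose from 6.21, 5.78 and 3.90 CPM to 13.1, 12.2 and 10.1 CPM (log2 fold change 1.15 ± 0.20 (SE), adjusted p = 0.00829). Members of the mu and alpha classes share long stretches of sequence, so how their reads were divided among them is uncertain.

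Ugt1a9, which attaches glucuronic acid to phenols and other foreign compounds (ENSMUSG00000090175, chr1:88070800-88218997, plus strand), stood at 28.8, 41.4 and 28.7 CPM in the HF.Ctrl mice and 233, 268 and 205 CPM in the HF.SAAR mice. It was 7.14-fold higher in HF.SAAR (log2 fold change 2.84 ± 0.21 (SE), adjusted p = 2.00e-05), and of the 7 genes tested at the Ugt1 locus, which share their last exons, it was the 1 called (14.3%). Ugdh, which makes the UDP-glucuronic acid that these enzymes use, rose from 140.3, 127 and 141 CPM to 259, 196 and 218 CPM (0.72, adjusted p = 0.0201). Of the Ugt2 and Ugt3 genes, 0 of 11 tested were called higher and 3 lower (27.3%, against 1.97% of all genes tested). Ugt2b1 fell from 683, 859 and 775 CPM to 454, 438 and 423 CPM (log2 fold change −0.82 ± 0.14 (SE), adjusted p = 0.00791) and Ugt2a3 from 339, 327 and 329 CPM to 207, 243 and 189.7 CPM (log2 fold change −0.64 ± 0.10 (SE), adjusted p = 0.00607). The call of Ugdh was lost without HF.Ctrl 1, HF.Ctrl 2, HF.Ctrl 3, HF.SAAR 1 or HF.SAAR 3 (adjusted p up to 0.103, without HF.SAAR 1), and those of Ugt2b1 and Ugt2a3 without HF.Ctrl 2 and HF.SAAR 3 together (0.0888 and 0.0557).

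Targets of NRF2, the transcription factor of the antioxidant response, numbered 24, of which 8 were called higher and 0 lower (33.3%, against 1.97% of all genes tested, median 0.53, 21 above 0). They overlap the transferases above. The others were Nqo1, a quinone reductase (2.25, 2.34 and 2.68 CPM in the HF.Ctrl mice and 6.97, 6.41 and 5.89 CPM in the HF.SAAR mice, log2 fold change 1.40 ± 0.18 (SE), adjusted p = 0.000936), Htatip2 (from a mean of 25.7 ± 4.43 to 66.0 ± 8.28 CPM, SD, n = 3, log2 fold change 1.36 ± 0.15 (SE), adjusted p = 0.000271), the microsomal epoxide hydrolase Ephx1 (0.60, adjusted p = 0.00829), Ugdh, and Cyp2a5, a coumarin hydroxylase (1.26, adjusted p = 0.0185). Nqo1 was low in every mouse, and its groups did not overlap. Gclc and Gclm, the subunits of the enzyme that limits glutathione synthesis, had log2 fold changes of 0.42 and 0.17 and were not called. Among the 22 genes of glutathione synthesis and recycling, 0 were called by edgeR, 9 had an unadjusted p under 0.05 and DESeq2 called 2 (median 0.31). Over all genes the last 2 counts were 1825 of 14670 and 595 of 12782. Pir, among the genes called higher with the smallest p, is an iron-binding nuclear protein. It rose from 16.8, 17.1 and 15.1 CPM to 34.6, 36.8 and 36.7 CPM (log2 fold change 1.14 ± 0.10 (SE), adjusted p = 6.66e-05). The calls of Ugdh and Cyp2a5 were not all kept without any 1 of the 6 mice (adjusted p up to 0.103, for Ugdh without HF.SAAR 1). That of Ephx1 was lost without HF.Ctrl 2 and HF.SAAR 3 together (adjusted p = 0.0697).

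**Figure D3:**
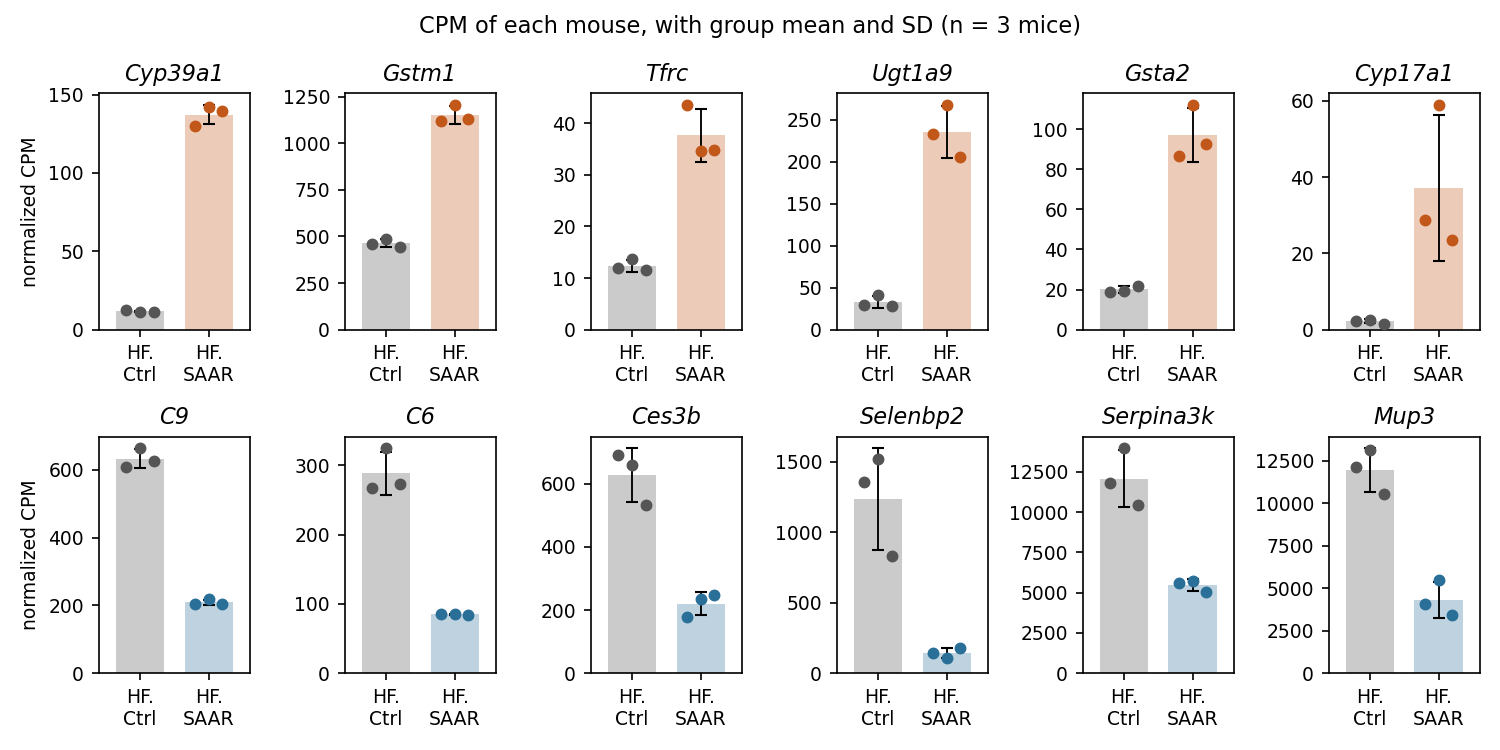
Normalized CPM (vertical axes, starting at 0) of 12 genes in each of the 3 HF.Ctrl and 3 HF.SAAR mice (points), with the group mean (bar) and SD (line, n = 3). In each panel the points of the groups do not overlap, as for C9, between 609 and 664 CPM in HF.Ctrl and between 204 and 218 CPM in HF.SAAR. The same holds for all 289 called genes, from which these were chosen, and for 17.9% of all genes tested.

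The plot of single mice shows genes of each main group, 6 that rose and 6 that fell. Proteins of the membrane attack complex, which terminal complement assembles on target cells, included more genes called lower, as a share of those tested, than any other list. Of 7 terminal complement genes tested, 5 were called lower and 0 higher (71.4%, against 1.97% of all genes tested), and their median log2 fold change was −0.76. C9, whose protein forms the ring of the pore (ENSMUSG00000022149, chr15:6445327-6498751, plus strand), stood at 609, 664 and 625 CPM in the HF.Ctrl mice and 204, 218 and 204 CPM in the HF.SAAR mice (log2 fold change −1.60 ± 0.12 (SE), adjusted p = 1.11e-05). C6 (ENSMUSG00000022181, chr15:4727175-4814967, plus strand) stood at 268, 325 and 273 CPM in the HF.Ctrl mice and 86.1, 84.8 and 83.9 CPM in the HF.SAAR mice (log2 fold change −1.76 ± 0.14 (SE), adjusted p = 2.00e-05). In both genes the restricted mice were close together and well under the lowest control. C8b fell from 434, 533 and 384 CPM to 251, 236 and 249 CPM (−0.87, adjusted p = 0.00298), C8a from 651, 666 and 719 CPM to 409.7, 325 and 466 CPM (−0.76, adjusted p = 0.0152), and Hc, which encodes complement C5, from 759.6, 734 and 862 CPM to 545, 542 and 601 CPM (−0.48, adjusted p = 0.0345). The remaining pair were C8g (log2 fold change −0.36) and C7 (0.50), neither of them called. The calls of C8a and Hc were not all kept without HF.Ctrl 1, HF.Ctrl 3, HF.SAAR 1, HF.SAAR 2 or HF.SAAR 3 (adjusted p up to 0.149, for Hc without HF.SAAR 1).

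Lists of other plasma proteins had smaller shares called than terminal complement. Clu, an inhibitor of complement lysis, was called lower (−0.35, adjusted p = 0.0373). Of 30 coagulation and fibrinolysis genes, 2 were called lower and 0 higher (6.67%, against 1.97% of all genes tested), F11 (−0.69, adjusted p = 0.0426) and F13b (−0.41, adjusted p = 0.0287), and the median of −0.09 turned above 0 with library-size scaling. The calls of Clu, F11 and F13b were not all kept without any 1 of the 6 mice (adjusted p up to 0.172, for F11 without HF.SAAR 1). The 28 acute phase genes went both ways, 3 called higher and 3 lower (21.4%). Apcs, serum amyloid P, rose from 48.1, 59.8 and 39.8 CPM to 133, 167 and 108 CPM (log2 fold change 1.47 ± 0.19 (SE), adjusted p = 0.00118), with the groups apart although the mice within each varied. Saa4, the constitutive serum amyloid A, fell from 338, 369 and 322 CPM to 209, 213 and 212 CPM (log2 fold change −0.70 ± 0.11 (SE), adjusted p = 0.00498). Crp and Lbp were also called higher (0.52 and 0.75), and Orm1 and Steap4 lower (−1.14 and −0.87). The calls of Crp, Lbp, Orm1 and Steap4 were not all kept without any 1 of the 6 mice (adjusted p up to 0.178, for Orm1 without HF.SAAR 1). That of Saa4 was lost without HF.Ctrl 2 and HF.SAAR 3 together (adjusted p = 0.0557).

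Genes that male mouse liver expresses above female liver were often called lower: of 27 tested, 15 were called lower and 0 higher (55.6%, against 1.97% of all genes tested), and 26 had log2 fold changes below 0, with a median of −1.25. The list shares members with the major urinary protein, carboxylesterase, complement and serpin groups, so these counts are not separate. Selenbp2, a selenium-binding protein (ENSMUSG00000068877, chr3:94693556-94704413, plus strand), stood at 1354, 1519.6 and 828 CPM in the HF.Ctrl mice and 141, 106 and 179 CPM in the HF.SAAR mice. HF.Ctrl 3 was the lowest control and still above every restricted mouse (log2 fold change −3.12 ± 0.28 (SE), adjusted p = 0.000243). Cyp2d9, a testosterone 16-alpha-hydroxylase, fell from 1432, 1529 and 1364 CPM to 797, 778 and 594 CPM (1.99-fold, adjusted p = 0.000572). Ghr, the growth hormone receptor, fell from 495, 489 and 562 CPM to 308, 278 and 297 CPM (log2 fold change −0.81 ± 0.10 (SE), adjusted p = 0.000761), the 1 gene called of 22 of the growth hormone, STAT5 and IGF axis (4.55%). Igf1 and Igfals, its secreted targets, had log2 fold changes of −0.40 and −0.55 and were not called. On the list of female-biased genes, 2 of 18 tested were called higher and 0 lower (11.1%, median 0.55). One was Cyp17a1, the steroid 17-alpha-hydroxylase (ENSMUSG00000003555, chr19:46667165-46673172, minus strand), at 2.39, 2.56 and 1.58 CPM in the HF.Ctrl mice and 28.8, 59.0 and 23.5 CPM in the HF.SAAR mice (log2 fold change 4.08 ± 0.43 (SE), adjusted p = 0.000908). Its restricted mice varied, with HF.SAAR 2 the highest, yet each was far above the controls. The other was Cyp2a22 (1.77, adjusted p = 0.0212), a low gene. The call of Cyp2a22 was lost without any 1 of the 6 mice (adjusted p up to 0.0920, without HF.SAAR 2).

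Major urinary proteins bind pheromones and are secreted into blood and urine. Of 34 genes and pseudogenes tested, 11 were called lower and 0 higher (32.4%, against 1.97% of all genes tested), with a median of −1.23. Mup3 (ENSMUSG00000066154, chr4:62083476-62087342, minus strand) stood at 12159.7, 13117 and 10563 CPM in the HF.Ctrl mice and 4049.6, 5468 and 3425 CPM in the HF.SAAR mice (log2 fold change −1.47 ± 0.17 (SE), adjusted p = 0.000649). Mup21 fell from 729, 713 and 626 CPM to 152, 108 and 95.1 CPM (log2 fold change −2.54 ± 0.30 (SE), adjusted p = 0.00166), and both were lower in every restricted mouse than in any control. The most abundant, Mup7, fell from 41715, 53005 and 33259 CPM to 15145, 19671 and 10285 CPM (−1.50, adjusted p = 0.0151), and Mup20, whose protein is the male pheromone darcin, from 11966, 15884 and 10216 CPM to 6425, 7536 and 4758 CPM (−1.02, adjusted p = 0.0363). The calls of Mup7 and Mup20 were not all kept without HF.Ctrl 1, HF.Ctrl 2, HF.SAAR 1 or HF.SAAR 3 (adjusted p up to 0.129, for Mup20 without HF.SAAR 1). Reads are divided among near-identical members, so the family total is firmer than any member. The called members lie in 2 stretches, each bounded by called genes, chr4:60066469-60741326 (4 of 11 genes tested) and chr4:61300023-62150863 (7 of 19).

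Of 17 serpins of clade A, which inhibit proteases in plasma, 4 were called lower and 1 higher (29.4%, against 1.97% of all genes tested). On chr12:103894926-104346144, a stretch bounded by its called genes, 5 of 11 genes tested were called lower, among them a pseudogene. Serpina3k, a kallikrein inhibitor and among the most abundant mRNAs here (ENSMUSG00000058207, chr12:104338486-104346144, plus strand), stood at 11826, 13966 and 10469 CPM in the HF.Ctrl mice and 5602, 5729.6 and 5066 CPM in the HF.SAAR mice (log2 fold change −1.14 ± 0.14 (SE), adjusted p = 0.000707). The lowest control was well above the highest restricted mouse. Serpina1e, an alpha-1-antitrypsin gene, fell from 8831, 9741 and 5442 CPM to 3316, 2383 and 2121 CPM (−1.62, adjusted p = 0.0157), and the pseudogene Serpina4-ps1 from 215, 261 and 66.0 CPM to 2.20, 3.67 and 6.41 CPM (−5.45, adjusted p = 0.0141). HF.Ctrl 3 was the lowest control in both. The calls of Serpina1e and Serpina4-ps1 were not all kept without HF.Ctrl 1, HF.SAAR 1, HF.SAAR 2 or HF.SAAR 3 (adjusted p up to 0.0717, for Serpina1e without HF.SAAR 2). In the other direction Serpina6, corticosteroid-binding globulin, was called higher (0.84, adjusted p = 0.0446), and the call of Serpina6 was lost without any 1 of the 6 mice (adjusted p up to 0.165, without HF.Ctrl 1). The alpha-1-antitrypsin genes share most of their sequence.

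Carboxylesterases hydrolyze esters, among them triglycerides and drugs. Of 16 tested, 7 were called lower and 1 higher (50%, against 1.97% of all genes tested, median −0.56). Ces3a (ENSMUSG00000069922, chr8:105048601-105058413, plus strand) stood at 2481, 2466 and 2539.5 CPM in the HF.Ctrl mice and 1491, 1376 and 1497 CPM in the HF.SAAR mice (log2 fold change −0.78 ± 0.07 (SE), adjusted p = 9.76e-05), with a narrow spread within each group. Ces3b fell from 692, 659.5 and 532 CPM to 178, 236 and 248 CPM (log2 fold change −1.51 ± 0.16 (SE), adjusted p = 0.000231) and Ces1d, a triglyceride hydrolase, from 244, 222 and 237 CPM to 116, 145 and 109.8 CPM (log2 fold change −0.92 ± 0.12 (SE), adjusted p = 0.00135). Against these, Ces1b rose from 59.9, 58.7 and 62.1 CPM to 165, 151 and 135 CPM (log2 fold change 1.32 ± 0.15 (SE), adjusted p = 0.000398), so the family did not move as a block. On chr8:104226685-105150109, a stretch bounded by its called genes, 6 of 21 genes tested were called lower, 5 of them carboxylesterases and the other Tk2, the mitochondrial thymidine kinase. The call of Tk2 was lost without HF.Ctrl 1, HF.Ctrl 3, HF.SAAR 1, HF.SAAR 2 or HF.SAAR 3 (adjusted p up to 0.132, without HF.SAAR 1).

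Cytochromes P450 also went both ways. Of 41 genes of families 1 to 3, 3 were called higher and 7 lower (24.4%, against 1.97% of all genes tested, median −0.20). Cyp2d40 fell from 69.1, 59.5 and 64.3 CPM to 32.2, 35.4 and 25.2 CPM (−1.06, adjusted p = 0.00135) and Cyp2c23, an arachidonic acid epoxygenase, from 348, 363 and 344 CPM to 205, 207 and 228 CPM (−0.72, adjusted p = 0.00756). Cyp3a59 rose from 12.8, 14.5 and 20.8 CPM to 38.7, 47.5 and 49.8 CPM (1.50, adjusted p = 0.00498), and its restricted mice were each above every control. Of 14 genes of family 4, which hydroxylates fatty acids, 1 was called higher, Cyp4a31 (from 5.87, 10.5 and 5.97 CPM to 47.2, 43.4 and 30.4 CPM, 2.43, adjusted p = 0.00403), and 3 lower (28.6%), with Cyp4v3 the steadiest (−0.65, adjusted p = 0.00180). Steroid-modifying dehydrogenases had 4 of 14 called lower and 1 higher (35.7%). Hsd3b2 fell from 47.6, 49.3 and 66.4 CPM to 20.6, 25.2 and 24.4 CPM (log2 fold change −1.22 ± 0.13 (SE), adjusted p = 0.000271), and with Hsd3b5 (−1.25) and Hsd3b3 (−0.55) made up 3 of the 4 genes tested on chr3:98618634-98763127, a stretch bounded by called genes. Hsd17b13, a protein of lipid droplets, rose from 460.1, 466 and 389 CPM to 691, 739.9 and 741 CPM (log2 fold change 0.72 ± 0.10 (SE), adjusted p = 0.00135). The calls of Hsd3b5 and Hsd3b3 were not all kept without any 1 of the 6 mice (adjusted p up to 0.120, for Hsd3b3 without HF.SAAR 2). That of Cyp3a59 was lost without HF.Ctrl 2 and HF.SAAR 3 together (adjusted p = 0.0780).

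**Figure D4:**
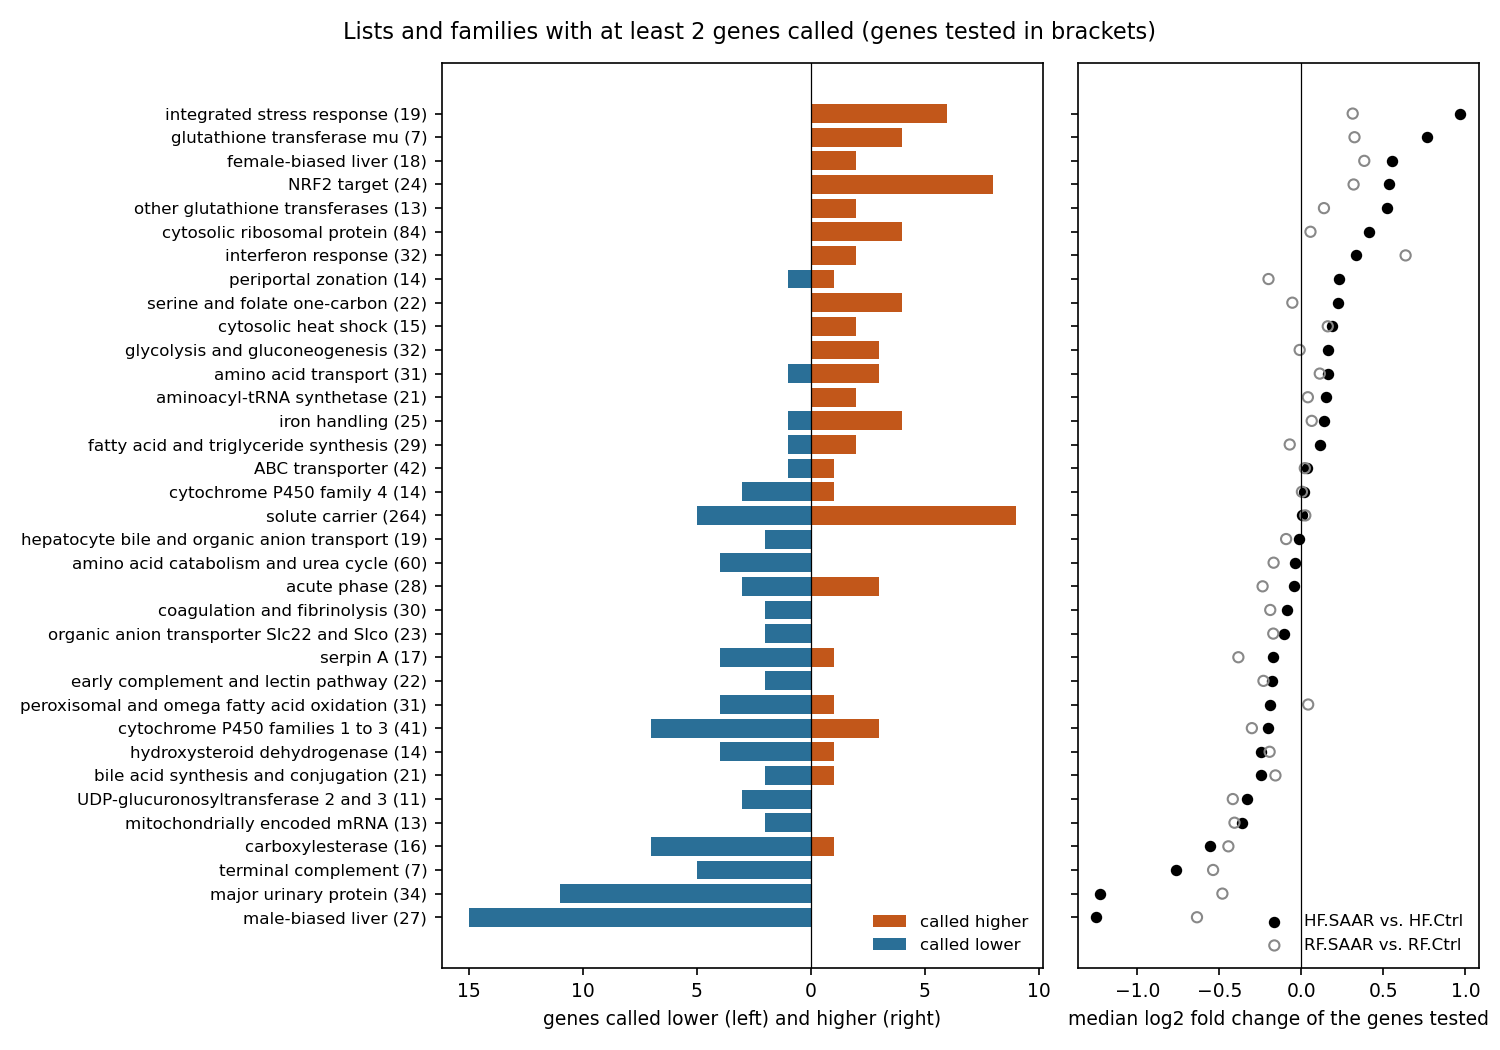
For each list or family with at least 2 called genes (genes tested in brackets), the left panel shows the number called lower (bars to the left) and higher (bars to the right), and the right panel the median log2 fold change on high fat (filled) and on regular fat (open). Male-biased genes stand out with 15 called lower of 27 and a median of −1.25, and NRF2 targets with 8 called higher of 24 and a median of 0.53.

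The plot of lists sets these groups beside others. Iron-handling genes had 4 called higher and 1 lower of 25 (20%, against 1.97% of all genes tested). Tfrc, the transferrin receptor (ENSMUSG00000022797, chr16:32608920-32632794, plus strand), stood at 11.9, 13.6 and 11.6 CPM in the HF.Ctrl mice and 43.6, 34.6 and 34.8 CPM in the HF.SAAR mice, roughly level within each group (log2 fold change 1.60 ± 0.12 (SE), adjusted p = 1.11e-05). Fth1, the heavy chain of ferritin, rose from 1108, 1104 and 979.9 CPM to 1657, 1689 and 1512 CPM (log2 fold change 0.61 ± 0.10 (SE), adjusted p = 0.00598), and Ftl1, the light chain, from 2912, 2950.5 and 2246 CPM to 4338, 4749.9 and 3779 CPM (0.67, adjusted p = 0.0208). Slc11a2, an iron importer, was also called higher (0.66, adjusted p = 0.0403), and Ireb2, which binds iron-responsive elements of mRNAs, lower (−0.48, adjusted p = 0.0344). Outside that list, Slc48a1, a heme transporter and a called member of the solute carrier family, rose (0.69, adjusted p = 0.00392). The calls of Ftl1, Slc11a2 and Ireb2 were not all kept without any 1 of the 6 mice (adjusted p up to 0.166, for Slc11a2 without HF.SAAR 1). Alas2, the erythroid enzyme of heme synthesis (ENSMUSG00000025270, chrX:150547375-150570638, plus strand), stood at 121, 99.5 and 115 CPM in the HF.Ctrl mice and 49.4, 41.1 and 40.2 CPM in the HF.SAAR mice (log2 fold change −1.36 ± 0.13 (SE), adjusted p = 9.56e-05). It was the 1 erythroid marker called of 5 tested (20%). The summed erythroid markers, Alas2 included, were 468, 454 and 444 CPM in HF.Ctrl and 344, 553 and 243 CPM in HF.SAAR, with HF.SAAR 2 above every control. The globin genes Hba-a1, Hba-a2, Hbb-bs and Hbb-bt had log2 fold changes of 0.02, −0.08, −0.0013 and −0.16 and were not called. Of 5 adipose markers tested, 1 (20%) was called lower, Car3, carbonic anhydrase of fat, muscle and liver, at 3142, 2438 and 2930.4 CPM in the HF.Ctrl mice and 1512, 1109 and 1295 CPM in the HF.SAAR mice (log2 fold change −1.12 ± 0.14 (SE), adjusted p = 0.000762). The others, Adipoq, Plin1, Cfd and Retn, were low and had log2 fold changes of −0.05, −0.11, −0.06 and 0.41.

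Within sulfur and one-carbon metabolism the share called differed between lists. Mat1a, which makes S-adenosylmethionine in the adult liver (ENSMUSG00000037798, chr14:41105035-41124412, plus strand), stood at 1837, 1874 and 1868 CPM in the HF.Ctrl mice and 3637, 3593 and 3060.2 CPM in the HF.SAAR mice. The controls lay within a narrow range and every restricted mouse was far above it (log2 fold change 0.88 ± 0.12 (SE), adjusted p = 0.00149). It was the 1 gene called of 27 of the methionine cycle and transsulfuration (3.70%, against 1.97% of all genes tested, median 0.06), while Cbs and Cth, the enzymes that lead to cysteine, had log2 fold changes of 0.42 and 0.47, and Bhmt of −0.15. Of 22 genes of serine and folate one-carbon metabolism, 4 were called higher and 0 lower (18.2%, median 0.22), among them Psat1 (from 1.91, 0.890 and 1.04 CPM to 27.8, 18.3 and 29.5 CPM, log2 fold change 4.32 ± 0.46 (SE), adjusted p = 0.000762) and the mitochondrial folate enzyme Mthfd2 (from 1.16, 1.17 and 0.914 CPM to 12.8, 6.46 and 18.8 CPM, log2 fold change 3.55 ± 0.34 (SE), adjusted p = 9.76e-05). Both were low in every control. Of 19 genes of the integrated stress response 6 were called higher (31.6%), all 19 lay above 0, and their median was 0.97. Among them Atf5, a transcription factor (ENSMUSG00000038539, chr7:44812256-44816658, minus strand), stood at 186, 168 and 151 CPM in the HF.Ctrl mice and 550.4, 438 and 623 CPM in the HF.SAAR mice (log2 fold change 1.68 ± 0.14 (SE), adjusted p = 2.00e-05), while Fgf21, a secreted hormone, had the highest log2 fold change of the genes called (from 1.16, 2.39 and 0.914 CPM to 12.8, 38.5 and 45.5 CPM, 4.41, adjusted p = 0.0241), and Asns, asparagine synthetase, rose from 3.21, 6.67 and 4.02 CPM to 48.6, 29.9 and 59.6 CPM (3.30, adjusted p = 0.0324). The spread among restricted mice was wide in Fgf21 and Asns, and the calls of Fgf21 and Asns were not all kept without any 1 of the 6 mice (adjusted p up to 0.146, for Asns without HF.Ctrl 1). Outside that list, Pck2, mitochondrial PEP carboxykinase, rose from 3.48, 3.06 and 4.15 CPM to 13.8, 10.6 and 14.8 CPM (log2 fold change 1.88 ± 0.24 (SE), adjusted p = 0.00114).

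Promoters were read for shared letters because the raised genes include these targets of ATF4 and of NRF2. Windows of 300 bases, 250 before and 50 after each start, came from RefSeq (GRCm38.p6) and matched 109 of the genes called higher, 98 of those called lower and 11199 of the genes tested. The core TGATGNAA, which C/EBP and ATF proteins bind, was found on either strand in 10.1% of the genes called higher (11), in 0% of those called lower (0) and in 2.99% of those tested (335), and in 3.97% of all 32851 windows. The antioxidant response core TGACNNNGC was in 17.4%, 13.3% and 16.4%, and in 12.4% of all windows. The other cores were TTCNNNGAA of STAT5 (10.1%, 5.10%, 8.60% and 8.30% of all windows), TCACNCCAC of SREBP (3.67%, 2.04%, 1.46% and 1.24%), TGACGTCA of CREB (0.917%, 2.04%, 3.33% and 1.79%) and the E-box CACGTG (12.8%, 7.14%, 1233 of the 11199 genes tested, and 7.15% of all windows). A match is a description of the letters and shows no binding. The 11 genes called higher with TGATGNAA were Slc17a1, Ctsl, Dffa, Ung, Asns, Gars, Fgf21, Plscr1, Lgals3bp, Hsd17b13 and Pck2, and the calls of Slc17a1, Ctsl, Dffa, Asns, Gars, Fgf21, Plscr1 and Lgals3bp were not all kept without any 1 of the 6 mice (adjusted p up to 0.189, for Lgals3bp without HF.SAAR 3). Of the 6 genes of the integrated stress response called higher, Fgf21 and Asns had a match, and the windows of Atf5, Psat1, Mthfd2 and Gadd45b had none, and the call of Gadd45b was lost without HF.Ctrl 1 (adjusted p up to 0.0672, without HF.Ctrl 1). Of the 11, windows of the 5 with the highest log2 fold changes are shown to set known targets beside Ung and Slc17a1. Ung, named after its values were seen, is a DNA repair enzyme (1.33, adjusted p = 0.00403). Slc17a1 is a phosphate and urate transporter (0.84, adjusted p = 0.0300). Capitals mark the match, whose first printed base lies 139 bases before the start in Fgf21 (chr7:45615441-45615740, minus strand), 23 in Asns (chr6:7693160-7693459, minus strand), 103 in Pck2 (chr14:55540016-55540315, plus strand), 186 in Ung (chr5:114130185-114130484, plus strand) and 101 in Slc17a1 (chr13:23868768-23869067, plus strand).
Fgf21: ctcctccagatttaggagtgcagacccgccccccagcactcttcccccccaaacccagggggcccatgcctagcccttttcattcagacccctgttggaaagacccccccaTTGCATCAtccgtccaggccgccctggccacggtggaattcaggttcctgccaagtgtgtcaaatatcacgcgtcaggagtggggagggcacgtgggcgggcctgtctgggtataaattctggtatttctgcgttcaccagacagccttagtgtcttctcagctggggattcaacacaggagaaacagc
Asns: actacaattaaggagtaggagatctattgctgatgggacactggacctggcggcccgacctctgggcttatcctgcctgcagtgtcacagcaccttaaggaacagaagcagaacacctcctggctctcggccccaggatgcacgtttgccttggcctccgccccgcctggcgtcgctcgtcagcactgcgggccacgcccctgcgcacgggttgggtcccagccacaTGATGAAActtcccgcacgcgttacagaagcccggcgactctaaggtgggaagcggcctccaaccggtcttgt
Pck2: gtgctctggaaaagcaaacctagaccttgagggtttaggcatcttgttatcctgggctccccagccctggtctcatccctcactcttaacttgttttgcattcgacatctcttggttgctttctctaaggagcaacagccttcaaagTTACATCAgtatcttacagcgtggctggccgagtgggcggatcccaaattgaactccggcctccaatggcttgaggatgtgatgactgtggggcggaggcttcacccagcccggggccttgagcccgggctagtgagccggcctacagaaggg
Ung: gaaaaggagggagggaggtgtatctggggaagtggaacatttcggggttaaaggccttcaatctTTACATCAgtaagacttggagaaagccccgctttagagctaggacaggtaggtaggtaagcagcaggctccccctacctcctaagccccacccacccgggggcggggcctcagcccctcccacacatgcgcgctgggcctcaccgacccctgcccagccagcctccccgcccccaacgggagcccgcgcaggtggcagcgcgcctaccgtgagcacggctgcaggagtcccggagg
Slc17a1: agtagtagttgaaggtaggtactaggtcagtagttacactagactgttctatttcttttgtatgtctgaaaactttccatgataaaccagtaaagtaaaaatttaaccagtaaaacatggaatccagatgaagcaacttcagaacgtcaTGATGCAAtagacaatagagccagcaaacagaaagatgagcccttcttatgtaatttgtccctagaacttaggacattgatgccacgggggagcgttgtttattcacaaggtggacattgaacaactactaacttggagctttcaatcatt

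Of the 8 NRF2 targets called higher, 2 had a match of the antioxidant core and 6 had none (Nqo1, Gstm1, Gstm3, Gsta2, Ephx1 and Cyp2a5). The windows of the 2, Htatip2 (chr7:49758856-49759155, plus strand) and Ugdh (chr5:65435793-65436092, minus strand), are shown, with matches of TGACNNNGC in capitals. In Htatip2 the match begins 11 bases after the start, and in Ugdh 2 matches begin 132 and 94 bases before it. The calls of Ugdh and Cyp2a5 were not all kept without any 1 of the 6 mice (adjusted p up to 0.103, for Ugdh without HF.SAAR 1).
Htatip2: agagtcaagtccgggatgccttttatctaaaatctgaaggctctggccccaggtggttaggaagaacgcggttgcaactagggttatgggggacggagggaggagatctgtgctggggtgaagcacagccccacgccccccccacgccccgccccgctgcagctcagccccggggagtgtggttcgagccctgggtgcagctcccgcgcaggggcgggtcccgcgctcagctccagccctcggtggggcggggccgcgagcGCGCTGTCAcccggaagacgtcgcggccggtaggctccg
Ugdh: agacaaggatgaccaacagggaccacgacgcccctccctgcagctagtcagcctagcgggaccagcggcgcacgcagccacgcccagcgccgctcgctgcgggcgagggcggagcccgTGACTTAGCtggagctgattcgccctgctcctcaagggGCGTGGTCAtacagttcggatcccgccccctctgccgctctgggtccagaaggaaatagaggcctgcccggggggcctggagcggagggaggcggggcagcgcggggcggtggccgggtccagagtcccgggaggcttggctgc

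The lipid lists differed in the share called, which was 1.97% over all genes tested. Of 33 genes of mitochondrial fatty acid oxidation and ketogenesis, 1 (3.03%) was called lower, Acsl1, which activates long-chain fatty acids (from 1245, 1292 and 1152 CPM to 808, 895 and 762 CPM, −0.58, adjusted p = 0.0152), and 0 higher, and the median of −0.09 turned above 0 with library-size scaling. Of 31 genes of peroxisomal and omega oxidation, 1 was called higher and 4 lower (16.1% in all, median −0.19), among the latter Cat, catalase (−0.36, adjusted p = 0.0331), and Acox3 (−0.56, adjusted p = 0.0201). Of 29 targets of PPARA, 1 was called higher, Fgf21, and 0 lower (3.45%, median 0.13), with 12 at an unadjusted p under 0.05 and 9 called by DESeq2. These counts were 18 and 13 for peroxisomal and omega oxidation, and 6 and 4 for mitochondrial oxidation and ketogenesis. Over all genes they were 1825 of 14670 and 595 of 12782. Of 29 genes of fatty acid and triglyceride synthesis, 2 were called higher and 1 lower (10.3%), with 11 at an unadjusted p under 0.05 and 6 called by DESeq2. Acacb, the mitochondrial acetyl-CoA carboxylase, rose from 12.5, 13.9 and 11.9 CPM to 21.9, 31.8 and 22.5 CPM (log2 fold change 0.99 ± 0.17 (SE), adjusted p = 0.00791), Fads1, a desaturase, from 248, 313 and 263 CPM to 409, 438 and 506 CPM (0.71, adjusted p = 0.0141), and Acss2, acetyl-CoA synthetase, was lower (−0.55, adjusted p = 0.0359). In Acacb, HF.SAAR 2 was the highest and all controls were below the restricted mice. Cholesterol synthesis (25 genes) had 0 called by edgeR, 2 at an unadjusted p under 0.05 and 1 called by DESeq2, and the apolipoproteins and lipoprotein enzymes (26) 0, 6 and 4. The calls of Acsl1, Cat, Acox3, Fads1, Acss2 and Fgf21 were not all kept without any 1 of the 6 mice (adjusted p up to 0.153, for Cat without HF.SAAR 3).

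Amino acid catabolism and the urea cycle had 4 of 60 genes called lower and 0 higher (6.67%, against 1.97% of all genes tested, median −0.04, above 0 with library-size scaling): Aadat (−0.79) and Kmo (−0.49) of the kynurenine pathway, Otc of the urea cycle (−0.42), and Acadsb of isoleucine breakdown (−0.45). The calls of Aadat, Kmo, Otc and Acadsb were not all kept without any 1 of the 6 mice (adjusted p up to 0.137, for Otc without HF.SAAR 1). Among 31 amino acid transporters, 3 were called higher and 1 lower (12.9%). Slc6a13, a carrier of taurine and GABA, rose from 125, 114 and 121 CPM to 166, 207 and 201 CPM (log2 fold change 0.67 ± 0.10 (SE), adjusted p = 0.00410), and Slc43a1, a carrier of branched-chain and aromatic amino acids, was at 11.6 ± 0.539 CPM in HF.Ctrl and 4.43 ± 0.603 CPM in HF.SAAR (SD, n = 3), a fall (log2 fold change −1.39 ± 0.23 (SE), adjusted p = 0.00611). Neither overlapped between groups. Of 19 bile and organic anion transporters, 2 were called lower and 0 higher (10.5%): Abcg2, an exporter of drugs and urate (from 94.3, 102 and 110.3 CPM to 68.6, 64.2 and 68.9 CPM, −0.60, adjusted p = 0.0105), and Slc22a7, an importer of organic anions (from 87.0, 79.4 and 66.1 CPM to 54.3, 43.2 and 43.8 CPM, −0.72, adjusted p = 0.0107). The call of Slc22a7 was lost without HF.Ctrl 1 or HF.SAAR 3 (adjusted p up to 0.0603, without HF.Ctrl 1). That of Abcg2 was lost with library-size scaling (adjusted p = 0.0625), with length offsets (0.0709) and without HF.Ctrl 2 and HF.SAAR 3 together (0.0648), and those of Slc6a13 (0.0557) and Slc43a1 (0.0663) without that pair.

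Cytosolic ribosomal protein genes lay above 0 nearly throughout, 83 of 84, with a median of 0.41. Of the 84, 57 had an unadjusted p under 0.05 and DESeq2 called 21. Over all genes these counts were 1825 of 14670 and 595 of 12782. By edgeR 4 were called higher and 0 lower (4.76%, against 1.97% of all genes tested): Rpl5 (0.67, adjusted p = 0.00829), Rpl12 (0.66, adjusted p = 0.0203), Rpl36a (0.67, adjusted p = 0.0307) and Rpsa (0.47, adjusted p = 0.0363). The calls of Rpl5, Rpl12, Rpl36a and Rpsa were not all kept without HF.Ctrl 1, HF.Ctrl 3, HF.SAAR 1, HF.SAAR 2 or HF.SAAR 3 (adjusted p up to 0.168, for Rpsa without HF.Ctrl 1). These genes have many processed pseudogenes, and the sharing of reads with them is uncertain. The 78 mitochondrial ribosomal proteins had a median of 0.01, with 0 called by edgeR, 3 at an unadjusted p under 0.05 and 0 called by DESeq2. Nuclear subunits of the respiratory chain (80) had a median of 0.04, with 0 called, 4 at an unadjusted p under 0.05 and 0 called by DESeq2. Of 13 mRNAs that mitochondrial DNA encodes, 12 lay below 0 (median −0.36), 9 had an unadjusted p under 0.05 and DESeq2 called 7. By edgeR 2 (15.4%) were called lower, mt-Nd4 (from 6039, 5973 and 6233 CPM to 4586, 4521 and 4097 CPM, −0.47, adjusted p = 0.00648) and mt-Nd6 (−0.48, adjusted p = 0.0404). The calls of mt-Nd4 and mt-Nd6 were not all kept without any 1 of the 6 mice (adjusted p up to 0.167, for mt-Nd6 without HF.SAAR 1). As a share of all counts, which is not scaled by TMM factors as the fold changes are, mitochondrial transcripts took 7.04, 6.13 and 7.07% in HF.Ctrl and 6.48, 6.51 and 5.94% in HF.SAAR, where the groups overlap.

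Sulfur-containing residues were counted as codons in the coding sequences. Cysteine made up a median of 1.74% of codons in genes called higher, 2.03% in genes called lower and 1.95% in all genes tested, and methionine 2.46%, 2.47% and 2.15%. Weighted by mRNA level, methionine codons were 2.48, 2.52 and 2.46% of the total in HF.Ctrl and 2.41, 2.44 and 2.37% in HF.SAAR, with no overlap of groups. Without the major urinary proteins they were 2.36, 2.38 and 2.35% against 2.35, 2.37 and 2.32%, and the groups overlapped. Weighted cysteine codons overlapped too, at 2.47, 2.45 and 2.45% against 2.42, 2.44 and 2.45%.

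Of the called genes, 148 were on no list. Those named here were chosen after their values were seen, apart from Col27a1, which was named by rule for its small p. In the mitochondrial matrix, Hspa9, the matrix HSP70, rose from 495, 511 and 509.6 CPM to 725, 728 and 785 CPM (0.56, adjusted p = 0.00180), its exchange factor Grpel2 from 57.1, 59.9 and 54.0 CPM to 101, 115 and 102 CPM (0.90, adjusted p = 0.00179), and Idh2, the NADP-linked isocitrate dehydrogenase, from 78.2, 78.5 and 82.1 CPM to 136, 121 and 134 CPM (0.71, adjusted p = 0.00163). All 3 were higher in each restricted mouse than in any control. Of lysosomal proteins, Creg1 rose from 369, 352 and 332 CPM to 656, 685 and 563 CPM (0.85, adjusted p = 0.00149), Arsa, arylsulfatase A, from 33.1, 26.6 and 35.4 CPM to 46.8, 51.0 and 57.1 CPM (0.70, adjusted p = 0.00791), and Cln6 from 2.87, 3.50 and 4.33 CPM to 8.36, 7.75 and 11.2 CPM (1.35, adjusted p = 0.00403). The tubulins Tuba4a (0.71, adjusted p = 0.00585) and Tuba8 (1.71, adjusted p = 0.00359), angiotensinogen Agt (0.70, adjusted p = 0.00648) and the purine synthesis enzyme Paics (0.59, adjusted p = 0.00696) were higher. Nipal1, a magnesium transporter, rose from 0.341, 0.278 and 0.427 CPM to 3.81, 5.48 and 6.17 CPM (3.87, adjusted p = 0.00279) from a level of a few counts per library. Called lower were Lifr, the receptor of leukemia inhibitory factor (from 337, 369.7 and 272 CPM to 122, 124 and 184 CPM, −1.19, adjusted p = 0.00403), Inmt, an amine N-methyltransferase that uses S-adenosylmethionine (from 192, 209 and 228 CPM to 67.7, 94.1 and 100.2 CPM, −1.26, adjusted p = 0.00133), the heparan sulfate 6-O-endosulfatase Sulf2 (from 15.6, 12.0 and 13.6 CPM to 6.81, 6.25 and 6.45 CPM, −1.07, adjusted p = 0.00149), the collagen Col27a1 (−1.62, adjusted p = 0.000191) and Qsox1, a sulfhydryl oxidase that forms disulfides in secreted proteins (from 266, 271 and 217 CPM to 138, 153 and 161 CPM, −0.74, adjusted p = 0.00403). Calls lost without HF.Ctrl 2 and HF.SAAR 3 together were those of Arsa (adjusted p = 0.0936), Cln6 (0.0586), Tuba8 (0.0515) and Agt (0.0532), and that of Cln6 was also lost with length offsets (0.0522).

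On regular fat the same restriction was compared to ask where the high-fat response differed. The comparisons share no mice. RF.SAAR vs. RF.Ctrl gave 218 called genes (1.49%), 88 higher (0.6%) and 130 lower (0.886%). Called higher at both fat levels were 45 genes, 30.4% of those on high fat and 51.1% of those on regular fat, and called lower at both were 70, 49.6% and 53.8%. No gene was called in opposite directions (0). Of the genes called on high fat, 145 of 148 and 139 of 141 had the same sign on regular fat, and 132 and 112 had the larger log2 fold change on high fat, where they had been selected. The genes called higher on high fat had a median log2 fold change of 0.45 on regular fat, and those called lower of −0.59. Read from the other side, the genes called higher on regular fat had medians of 0.79 there and 0.66 on high fat, and those called lower of −0.73 and −0.55. Across the 14670 genes Pearson r of the paired log2 fold changes was 0.344, and across the 289 genes called on high fat, which were selected by their values there, 0.897, with genes not independent of each other.

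**Figure D5:**
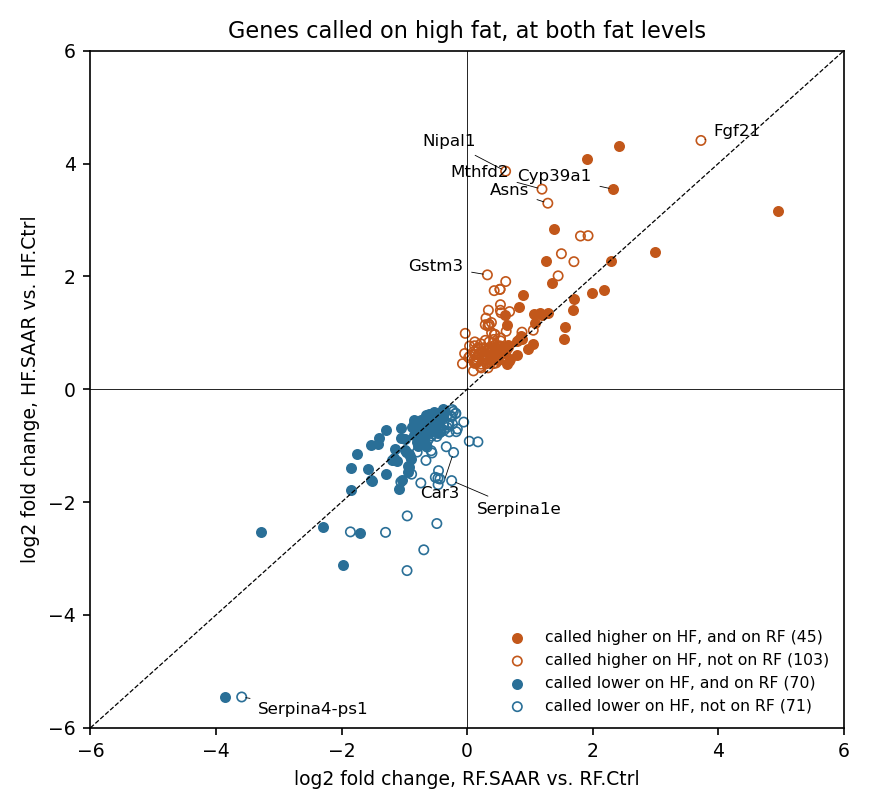
Log2 fold change on high fat (vertical axis) against that on regular fat (horizontal axis) for the 289 genes called on high fat, 1 point per gene, filled where also called on regular fat. All but 5 genes have the same sign on both axes.

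Tested directly, the difference between the responses reached the threshold in 1 gene of 14670 (0.00682%), Cyp39a1. Its log2 fold change was 3.55 on high fat and 2.33 on regular fat, a difference of 1.22 ± 0.14 (SE), adjusted p = 0.0106 by the edgeR interaction test. An unadjusted interaction p under 0.05 was found for 462 genes, and DESeq2 called 16. Of the 174 genes called on high fat and not on regular fat, 111 had an unadjusted p under 0.05 on regular fat and 71 an unadjusted interaction p under 0.05, so absence of a call on regular fat does not show a difference. As plotted for both fat levels, Gstm3 had a log2 fold change of 2.03 on high fat and 0.32 on regular fat (edgeR interaction, adjusted p = 0.290), and Ces1d of −0.92 and 0.04 (edgeR interaction, adjusted p = 0.290). Neither passed the threshold. By contrast Tfrc stood at 1.60 and 1.71, and Hsd3b2 at −1.22 and −1.16. By group, the median of the major urinary proteins was −1.23 on high fat and −0.48 on regular fat, with 11 of 34 at an unadjusted interaction p under 0.05, and that of the cytosolic ribosomal proteins 0.41 and 0.06, with 10 of 84. The interferon response had the larger median on regular fat, 0.64 (8 of 32 called higher) against 0.33 on high fat (2 called higher), with 7 at an unadjusted interaction p under 0.05, and PPARA targets had 0.64 and 0.13, with 4 of 29. Of all genes tested, 0.6% were called higher on regular fat and 1.01% on high fat. The difference was not tested for a group as a whole. The interaction of Cyp39a1 was not called by edgeR without HF.Ctrl 2 (adjusted p = 0.0582), HF.SAAR 3 (0.0613), RF.Ctrl 2 (0.0613) or RF.SAAR 3 (0.0510), nor without HF.Ctrl 2 and HF.SAAR 3 together (0.150) or with length offsets (0.0714), while its size stayed between 1.14 and 1.28. Omission of a regular-fat mouse lowered the count of called genes on regular fat, to 99 without RF.Ctrl 1, 124 without RF.SAAR 1, 99 without RF.Ctrl 2, 152 without RF.SAAR 2, 87 without RF.Ctrl 3 and 95 without RF.SAAR 3, and leaving out HF.Ctrl 1 to 143.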

How the data were processed

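Liver RNA was sequenced from 12 mice, each a separate animal. The authors trimmed reads with cutadapt after FastQC and quantified each mouse with kallisto on Ensembl transcripts, and these steps were not repeated. The deposited estimated counts (expected counts) are per transcript and not normalized between mice, the deposited TPM are length-corrected and have one sum in all mice, and the deposited effective lengths are in bases. Estimated counts were summed per gene (GENCODE M21, GRCm38) and rounded: 116816 of 118489 transcripts matched 36047 genes, and the 1673 others held 1.18 to 1.80% of counts in the HF.Ctrl and 0.704 to 0.859% in the HF.SAAR mice.

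Genes passing filterByExpr were fitted with edgeR 4.0.16 and limma 3.58.1 under R 4.3.3: TMM factors (0.917, 0.863 and 0.998 in HF.Ctrl, 1.06, 0.980 and 1.08 in HF.SAAR), 1 coefficient for each of 4 groups, robust quasi-likelihood F-tests, Benjamini-Hochberg adjustment within a comparison. The median prior degrees of freedom were 5.51 and the biological coefficient of variation 0.215. SE were derived from F (absolute log2 fold change over root F). Alternatives were DESeq2 1.42.0, other scalings and filters, length offsets, the 6 high-fat mice alone, single transcripts, and omission of each mouse.

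Genes named by rule were the 15 called each way with the smallest p, at least 1 CPM in the higher group and no overlap, the 5 most abundant each way, up to 6 called members of each list each way, genes past the interaction threshold and called markers. Members and lists were chosen with earlier results of these data known. Lists are described by counts and medians, with no set test. 1 result for a single gene is not reported here. No table of protein sequences was at hand, so sulfur-containing residues were counted from annotated coding sequences (14152 of the genes tested). Promoter windows are those of RefSeq.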

Additional observations from a re-analysis of the deposited data

Results flagged for a closer look

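Cyp39a1 responded to restriction at both fat levels but by different amounts. The difference between the log2 fold change on high fat and that on regular fat was 1.22 (SE 0.14), and it was the 1 gene for which the edgeR test of the difference itself passed the threshold (adjusted p = 0.0106), where DESeq2 called 16. The edgeR call was lost without HF.Ctrl 2 (adjusted p = 0.0582), HF.SAAR 3 (0.0613), RF.Ctrl 2 (0.0613) or RF.SAAR 3 (0.0510), without HF.Ctrl 2 and HF.SAAR 3 together (0.150), and with length offsets (0.0714).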

How the results depend on the processing

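None of the 136 genes named by rule changed direction in the gene-level alternatives (5 were not tested with at least 10 counts in every mouse), while list medians near 0, such as those of coagulation and of mitochondrial fatty acid oxidation, did with library-size scaling. The named genes were chosen by calls in the same mice, and the groups of called genes did not overlap. Their kept direction therefore followed largely from the choice and is no separate support. The number of genes called higher on high fat (148) was 639 with library-size scaling, 316 with DESeq2, 57 with transcripts tested one by one, 78 without HF.Ctrl 2 and HF.SAAR 3 together (chosen after seeing the data), and 55 to 155 with 1 mouse left out. The number called lower (141) was 80, 279, 55, 63 and 48 to 155 in the same order. A fit of the 6 high-fat mice alone called 99 genes higher and 91 lower. The interaction (1 gene) gave 0 with length offsets, 16 with DESeq2, 0 without those 2 mice, with 571, 515 and 547 genes at an unadjusted p under 0.05, and 0 to 2 with 1 mouse left out. The regular-fat count (218) was 425 with library-size scaling, 591 with DESeq2 and 87 to 244 with 1 mouse left out. The transcript tests and omissions leave less per test or fewer mice, and the cause of the other differences was not tested. All 148 genes called higher and 77 of the 141 called lower kept their call with library-size scaling, and 147 and 141 with DESeq2. RLE factors, omission of acinar genes, other count filters and length offsets gave 114 to 154 higher and 103 to 159 lower. For named genes, 2289 values kept direction and side of the threshold and 562 kept direction only. Of list medians 1461 moved by less than the spread between mice and 91 by more, 37 of these with library-size scaling. Among the values compared for promoter cores, 19 stayed the same and 2 moved. The smallest called log2 fold changes were 0.33 and 0.35 in size.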

Other observations

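Several gene groups of liver function had no gene called by edgeR on high fat, against 1.97% of all genes tested. Over all genes, 1825 of 14670 had an unadjusted p under 0.05 and DESeq2 called 595 of 12782. Clock genes (19) had a median log2 fold change of −0.28, and 0 were called by edgeR, 4 had an unadjusted p under 0.05 and DESeq2 called 1. Chaperones and unfolded protein response genes of the endoplasmic reticulum (31) had a median of −0.10, which was above 0 with library-size scaling, with 0 called, 7 at an unadjusted p under 0.05 and 0 called by DESeq2. Proteasome subunits (47) had a median of 0.10, with 0, 1 and 0. Other groups had a larger share called. Glycolysis and gluconeogenesis had 3 of 32 genes called higher and 0 lower (9.38%), among them Gpi1, glucose-6-phosphate isomerase (from 111, 108 and 105 CPM to 157, 160.3 and 179 CPM, log2 fold change 0.62 ± 0.09 (SE), adjusted p = 0.00304). In the lists of lobular zonation, periportal genes had 1 called higher and 1 lower of 14 (14.3%), and pericentral genes 0 of 16, with 4 at an unadjusted p under 0.05 and 0 called by DESeq2.

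Other cell types gave small or uneven signals. Cholangiocyte markers summed to 43.1, 58.3 and 48.7 CPM in HF.Ctrl and 35.2, 36.2 and 38.7 CPM in HF.SAAR, without overlap, but 0 of 5 genes were called by edgeR, 2 had an unadjusted p under 0.05 and DESeq2 called 1. Endothelial markers (351, 380 and 395 CPM against 398, 369 and 380 CPM) and stellate markers (320.1, 402 and 359 CPM against 341, 315 and 361 CPM) overlapped, as did cell cycle genes (10.4, 9.38 and 9.90 CPM against 7.69, 8.53 and 11.3 CPM), neutrophil markers (3.01, 6.17 and 4.39 CPM against 3.66, 7.49 and 4.29 CPM) and muscle markers (670.2, 309 and 552 CPM against 795, 314 and 647 CPM).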
